A study of Homo sapiens with 9 samples.

Results

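The transcripts of 10 genes of the nuclear lamina and inner nuclear membrane were followed in MDA-MB-231, a widely used human cell line of triple-negative breast cancer. The genes were LMNB1, LMNB2, LMNA, LBR, TMPO, EMD, BANF1, LEMD3, SUN1 and SUN2, out of 27615 genes in the longest deposited list. They were chosen by name as core parts of the lamina and its membrane anchors, with earlier results of these data known. RNA-seq had been done on 9 libraries, 3 from cells given vehicle (DMSO), 3 from cells given rimonabant and 3 from cells given TXX-1-10. Rimonabant blocks the CB1 cannabinoid receptor and was once used against obesity, and TXX-1-10 is a derivative of rimonabant made by the study. How much of each compound the sequenced cells were given, and for how long, is not stated in the sources used here, so the compounds are compared as they were used and not at a known matched dose. All 3 groups were the same line with no genetic change named in the labels. The sources do not say whether the 3 libraries of a group came from separate cultures, so p-values measure the spread between these libraries, which may be technical.

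The lamina is a meshwork of lamin filaments under the inner nuclear membrane. B-type lamins stay attached to the membrane through a farnesyl anchor, while A-type lamins, made from LMNA, are also found within the nucleus. LBR, the LAP2 proteins of TMPO, emerin and MAN1 sit in or near the inner membrane and hold chromatin and lamins to it, BANF1 links DNA to the LEM domain of several of them, and the SUN proteins join the lamina to the cytoskeleton across both membranes. In mitosis the whole structure is taken apart and rebuilt.

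The library totals behind the FPKM values were 17078370 to 19277808 reads. Every list ends partway through a line, at a different point of a common gene order, so that 8 of the 10 genes are listed for all 9 libraries, and EMD and LEMD3 for the 8 libraries other than rimonabant replicate 1. A line missing from a list is not a value of 0. The order runs broadly from higher to lower counts. Genes near the end of the list still had at least 658 counts in rimonabant replicate 1 and 68 in vehicle replicate 2. Shares over the 4236 genes tested in 9 libraries, or the 9369 tested in 8, are thus shares of the more abundant genes. All 10 genes had a mean FPKM of at least 1, the minimum for a test. VIM (224 to 329 FPKM) and CD44 (27.4 to 48.2 FPKM), which mark this mesenchymal line, were high in all libraries, CDH1 had a count of 0 in each of the 4 lists that reach it, and the leukocyte gene PTPRC had 1 to 10 counts in its 4 lists. The endothelial gene PECAM1 had 8 to 23 counts in 5 lists, the fibroblast genes COL1A1 and COL1A2 had 56 to 135 counts in 7 lists and 0 to 2 counts in 2 lists, ESR1 and PGR had at most 8 and 13 counts in 4 lists each, and the epithelial gene EPCAM had 4.47 to 5.37 FPKM in 7 lists. Rimonabant replicate 1 and TXX-1-10 replicate 3 stood apart from the other libraries of their groups with gene length. The Spearman correlation of a gene's deviation from its group with its length was -0.694 and -0.692 in them, against 0.477 to 0.667 in the other treated libraries and -0.0252 to 0.0276 in vehicle. Short genes were thus higher and long genes lower in these 2 libraries. No pair of replicates agreed within sampling noise, with a chi-square per degree of freedom of 2.38 to 44.9 over genes.

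In vehicle-treated cells the 10 genes ranged from 8.44 FPKM for LEMD3 to 162 FPKM for BANF1. BANF1 was followed by LMNB2, LMNA, LMNB1, TMPO, LBR, EMD, SUN1, SUN2 and LEMD3. The FPKM ranges of LMNB1 and TMPO overlapped, as did those of TMPO and LBR, and each of the other neighbours in this order was separated in all 3 libraries. Rimonabant changed the order only at its foot, where LEMD3 and SUN2 overlapped. Under TXX-1-10 the order by mean FPKM was BANF1, LMNA, LMNB2, EMD, LBR, SUN1, TMPO, LMNB1, LEMD3 and SUN2. The ranges of SUN1 and TMPO, of LMNB1 and LEMD3, and of LEMD3 and SUN2 overlapped there. By FPKM LMNA thus stood above LMNB2 in every TXX-1-10 library and below it in every vehicle library. FPKM is a count divided by gene length and library total, and it does not tell the isoforms of a gene apart. The length used for each of the 10 genes takes in all its exonic bases in GENCODE 29, not those of the transcripts present. Orders, ratios and shares between genes are therefore approximate.

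**Figure D1:**
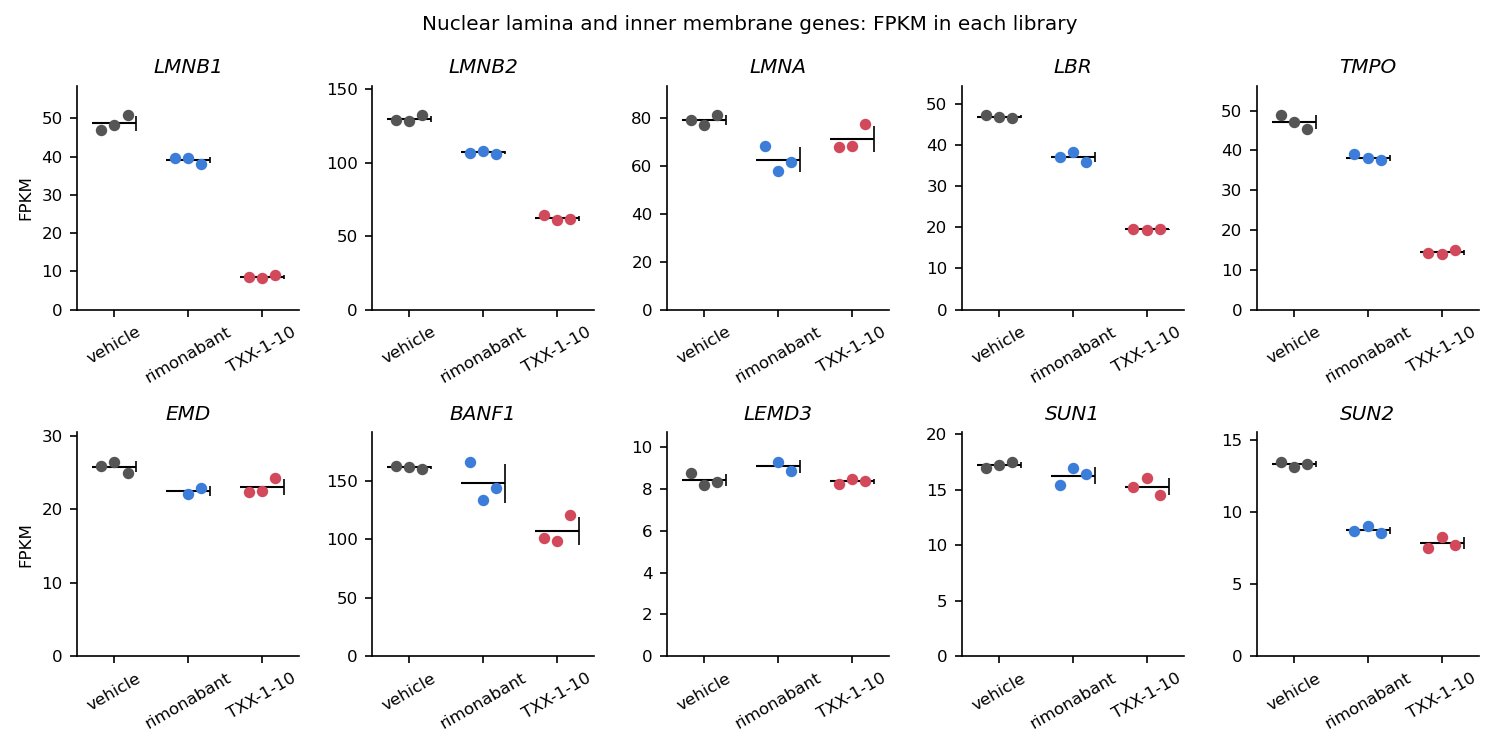
FPKM (vertical axes, each starting at 0) of the 10 genes in each library of vehicle, rimonabant and TXX-1-10. Points are libraries in the order of their replicate numbers, horizontal lines are means and vertical lines are ± 1 SD. LMNB1, TMPO, LBR and LMNB2 form separate levels in the 3 groups, from 47.0 to 50.9 FPKM for LMNB1 in vehicle down to 8.20 to 9.15 FPKM in TXX-1-10, whereas LMNA and LEMD3 overlap between vehicle and TXX-1-10.

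The promoters of the 4 genes that fell at least 2-fold under TXX-1-10 (LMNB1, TMPO, LBR and LMNB2, described next) are shown beside that of LMNA, the A-type relative of the B-type lamin genes, so that genes that moved and a lamin gene that did not pass can be read together. RefSeq promoters (GRCh38.p14, 250 bases before to 50 after the gene start) were matched for 9 of the 10 genes, all but SUN1. Printed are up to 200 bases, 5′ to 3′ on the strand of the gene, that lie before the gene start of both RefSeq and GENCODE 29. Capitals mark matches, on either strand, to an E2F motif (TTTNNCGC), a CHR element (TTTGAA or TTCGAA) or a CCAAT box (CCAAT), which recur in promoters of cell cycle genes and did not overlap one another here.
LMNB1 (chr5:126776423-126776622, + strand): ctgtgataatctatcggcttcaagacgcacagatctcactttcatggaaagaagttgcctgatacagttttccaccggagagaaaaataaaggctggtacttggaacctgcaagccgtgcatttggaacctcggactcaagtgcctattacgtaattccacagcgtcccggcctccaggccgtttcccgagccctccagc
TMPO (chr12:98515323-98515511, + strand): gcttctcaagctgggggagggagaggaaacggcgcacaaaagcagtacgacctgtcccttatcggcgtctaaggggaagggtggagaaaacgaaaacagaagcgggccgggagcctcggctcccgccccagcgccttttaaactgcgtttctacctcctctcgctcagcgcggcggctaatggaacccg
LBR (chr1:225428926-225429071, - strand): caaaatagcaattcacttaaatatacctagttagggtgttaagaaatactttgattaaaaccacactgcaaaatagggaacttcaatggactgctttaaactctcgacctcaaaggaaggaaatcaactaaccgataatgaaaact
LMNB2 (chr19:2456997-2457196, - strand): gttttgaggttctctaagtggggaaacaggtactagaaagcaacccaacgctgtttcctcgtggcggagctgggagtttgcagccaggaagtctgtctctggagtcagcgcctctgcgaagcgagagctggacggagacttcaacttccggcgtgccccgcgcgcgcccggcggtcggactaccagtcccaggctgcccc
LMNA (chr1:156082373-156082572, + strand): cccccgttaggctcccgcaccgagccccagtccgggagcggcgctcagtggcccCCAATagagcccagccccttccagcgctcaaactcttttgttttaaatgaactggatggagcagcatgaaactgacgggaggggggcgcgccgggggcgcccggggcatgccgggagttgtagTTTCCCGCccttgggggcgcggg

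LMNA was the only one of these 5 with a match in the printed stretch, an E2F match (TTTCCCGC) starting at -23 and a CCAAT box at -146 from the RefSeq start. TMPO had CCAAT boxes at -47 and -15 and LMNB2 a CHR match at -246, outside the stretches shown. In the whole window of 300 bases an E2F match was found in 2 of the 9 genes (LMNA and LEMD3) against 6.86% of 34796 distinct RefSeq promoters, a CHR match in 2 (LMNB2 and SUN2) against 16.4%, and a CCAAT box in 5 (LMNA, TMPO, EMD, LEMD3 and SUN2) against 34.6%. A match is a run of letters only, and LMNB1, LBR and BANF1 had none of the 3 in this window.

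TXX-1-10 lowered the transcripts of both B-type lamins, of LBR and of TMPO at least 2-fold, and left LMNA and LEMD3 without a detectable change. In bulk RNA, fewer cells of a kind and less RNA per cell cannot be told apart. Of the 10 genes, 4 passed both an absolute log2 fold change of 1 and an adjusted p of 0.05, all of them lower, in a comparison in which 7.6% of 4236 genes were lower by that rule (11.8% in either direction). Without the fold limit 8 of 10 were lower and 0 higher, against 43.8% and 30.5% of the genes tested. The FPKM ranges of 8 of the 10 lay wholly below vehicle, as they did for 46.3% of genes. The median log2 fold change was -0.91 over the 8 genes listed in all libraries, against -0.09 over all genes tested with the same libraries. In the fit of 8 libraries the median was -0.68 over the 10 genes, against -0.04 over 9369 genes. Tests of single genes are edgeR quasi-likelihood tests, with Benjamini-Hochberg adjustment over all genes of the comparison unless another tool is named, and ratios of genes with an exact permutation test.

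LMNB1 (ENSG00000113368, GRCh38 chr5 126776623 to 126837020, plus strand) encodes lamin B1. Its FPKM was 47.0, 48.2 and 50.9 in the vehicle libraries, 39.8, 39.5 and 38.2 in the rimonabant libraries and 8.50, 8.20 and 9.15 in the TXX-1-10 libraries. The 3 groups did not overlap, and all TXX-1-10 libraries lay far below both others. The means were 48.7 ± 1.97, 39.2 ± 0.851 and 8.62 ± 0.488 (SD, n = 3 each). The log2 fold change under TXX-1-10 was -2.50 (SE 0.057), a 5.65-fold fall with an adjusted p of 3.39e-10 by edgeR, and only 12 of the 4236 genes fell more. These values rest on 2917 to 3182 reads per vehicle library and 548 to 612 per TXX-1-10 library, the lowest counts of the 10 genes. LMNB1 is also among the genes the study displayed from these libraries, so its fall is not independent evidence for a direction of the group.

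LMNB2 (ENSG00000176619, chr19 2427638 to 2456996, minus strand), the gene of the other B-type lamin, was measured at 129, 129 and 132 FPKM in vehicle, 107, 108 and 106 FPKM in rimonabant and 64.3, 61.2 and 61.5 FPKM in TXX-1-10. Again no library of one group reached into another. The log2 fold change under TXX-1-10 was -1.06 (SE 0.045, adjusted p = 1.23e-08 by edgeR). This lies close to the 2-fold limit. The fall kept its adjusted p but missed the limit with TMM scaling (-0.96), with DESeq2 (-0.96) and with a correction for gene length (-0.998). Of its exonic bases, 5.58% are shared with TIMM13 and MIR7108 on the same strand.

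LMNA (ENSG00000160789, chr1 156082573 to 156140089, plus strand) gives the A-type lamins A and C, which gene counts do not separate. It had 79.2, 77.2 and 81.1 FPKM in vehicle, 68.1, 57.9 and 61.5 FPKM in rimonabant and 67.7, 68.2 and 77.5 FPKM in TXX-1-10. The TXX-1-10 range reached into that of vehicle through replicate 3, where LMNA was 1.14 times the mean of the other TXX-1-10 libraries. That library stood apart with gene length, with long genes lower, yet LMNA, with a length of 6985 bases, was higher in it. The source of this higher value was not tested. The log2 fold change was -0.15 (SE 0.073, adjusted p = 0.0805 by edgeR), with a 95% confidence interval of -0.32 to 0.01. Without TXX-1-10 replicate 3 it was -0.22 with an adjusted p of 0.0120, and without rimonabant replicate 1, which enters through the shared estimate of spread, the adjusted p was 0.0406. The value was smaller with TMM scaling (-0.06, adjusted p = 0.447), with DESeq2 (-0.05, adjusted p = 0.446) and with the gene length correction (-0.06, adjusted p = 0.435). A fall of LMNA of the size of those of the B-type lamins lies outside this interval.

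The balance of the lamins within a library moved accordingly. LMNB1 was 0.615 ± 0.0186 of LMNA by FPKM in vehicle, 0.630 ± 0.0499 in rimonabant and 0.121 ± 0.00384 in TXX-1-10 (SD, n = 3 each). LMNB2 was 1.64 ± 0.0215, 1.72 ± 0.153 and 0.880 ± 0.0797 of LMNA. In both ratios the 3 TXX-1-10 libraries lay below all others. Vehicle and rimonabant overlapped, for LMNB2 over LMNA only through rimonabant replicate 1. The exact two-sided permutation test gave p = 0.1 for TXX-1-10 against vehicle in both, the smallest value that 3 against 3 libraries allow, so this design cannot reach 0.05. Over all 18 tests of 6 ratios the adjusted value for these was 0.15. For rimonabant against vehicle the exact permutation p was 0.9 for LMNB1 over LMNA and 0.6 for LMNB2 over LMNA. LMNB1 also fell relative to LMNB2, from 0.374 ± 0.00997 in vehicle to 0.138 ± 0.00916 in TXX-1-10, with no overlap (exact permutation p = 0.1, adjusted 0.15).

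The summed FPKM of the 3 lamin genes was 258 ± 5.64 in vehicle, 209 ± 5.06 in rimonabant and 142 ± 5.45 in TXX-1-10. LMNA made up 30.7 ± 0.326% of this sum in vehicle, 29.9 ± 1.81% in rimonabant and 50.03 ± 2.11% in TXX-1-10. LMNB1 gave 18.9%, 18.8% and 6.06%, and LMNB2 50.4%, 51.3% and 43.9%. The mean makeup of the lamin transcripts was thus nearly that of vehicle in the rimonabant libraries. Single libraries varied more there, with LMNA at 28.1 to 31.7% of the sum against 30.4 to 31.0% in vehicle. The makeup differed in the TXX-1-10 libraries, where the sum was also lowest.

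**Figure D2:**
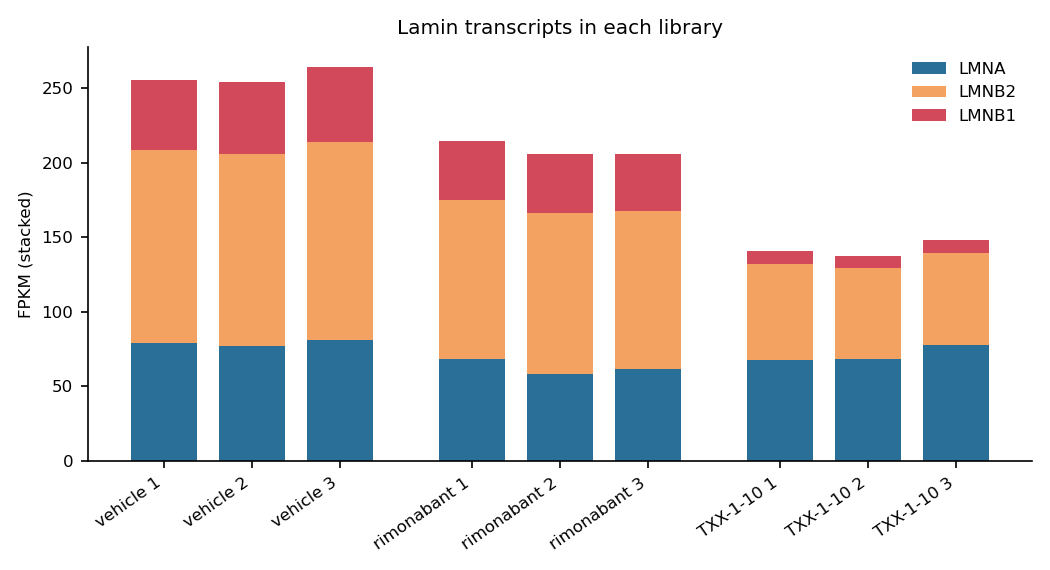
FPKM of LMNA, LMNB2 and LMNB1 stacked for each of the 9 libraries (vertical axis from 0). The LMNA segment makes up 30.7% of the bar in vehicle and 50.03% in TXX-1-10 on average, while the summed height falls from a mean of 258 to 142 FPKM.

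LBR (ENSG00000143815, chr1 225401502 to 225428925, minus strand), the lamin B receptor, is a membrane protein that binds B-type lamins and HP1 and also reduces sterols in cholesterol synthesis. Its FPKM was 47.2, 46.9 and 46.6 in vehicle, 37.1, 38.3 and 35.9 in rimonabant and 19.5, 19.3 and 19.6 in TXX-1-10. Relative to its mean it had the smallest spread of the 10 genes in vehicle and in TXX-1-10, and its 3 groups were separate. Under TXX-1-10 it fell 2.41-fold, a log2 fold change of -1.27 (SE 0.041, adjusted p = 2.11e-09 by edgeR). The library that stood apart with gene length gave 1.01 times the mean of the other TXX-1-10 libraries.

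TMPO (ENSG00000120802, chr12 98515512 to 98550379, plus strand) encodes the LAP2 proteins, of which some span the inner membrane and bind lamin B and one lies within the nucleus with A-type lamins. It had 48.9, 47.2 and 45.5 FPKM in vehicle, 39.0, 38.0 and 37.5 FPKM in rimonabant and 14.3, 13.9 and 15.0 FPKM in TXX-1-10. As for LMNB1, all libraries of the 3 groups were in separate ranges. It fell 3.28-fold under TXX-1-10, by a log2 fold change of -1.71 (SE 0.049, adjusted p = 9.66e-10 by edgeR). TMPO-AS1 on the other strand covers 8.3% of its exonic bases, GENCODE 29 names 2 TMPO pseudogenes, and whether the counting used strand is not stated in the sources used here.

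EMD (ENSG00000102119, chrX 154379197 to 154381523, plus strand), the gene of emerin, was at 25.9, 26.5 and 25.01 FPKM in vehicle, 22.02 and 22.9 FPKM in rimonabant replicates 2 and 3, and 22.3, 22.4 and 24.2 FPKM in TXX-1-10. Both treated groups lay below vehicle, by 0.20 and 0.17 on the log2 scale. In the fit of 8 libraries, without rimonabant replicate 1, the log2 fold change under TXX-1-10 was -0.17 (SE 0.058, adjusted p = 0.0212 by edgeR). The call is not firm. With the gene length correction the log2 fold change was -0.06 (adjusted p = 0.297), with TMM scaling -0.12 (adjusted p = 0.0716) and with DESeq2 -0.12 (adjusted p = 0.137). The adjusted p also rose above 0.05 without vehicle replicate 1 (0.0529) or 2 (0.0827), and without TXX-1-10 replicate 1 (0.0813) or 2 (0.0659).

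BANF1 (ENSG00000175334, chr11 66002079 to 66004149, plus strand) encodes the small DNA-binding protein that gathers LEM proteins onto chromatin as the envelope reforms. Its FPKM was 163, 162 and 160 in vehicle, 166, 133 and 144 in rimonabant and 101, 98.8 and 121 in TXX-1-10. All TXX-1-10 libraries lay below all others, and rimonabant replicate 1 lay above vehicle. The log2 fold change under TXX-1-10 was -0.60 (SE 0.092, adjusted p = 0.000187 by edgeR). BANF1 is the shortest of the 10 genes, and rimonabant replicate 1 and TXX-1-10 replicate 3 were 1.20 and 1.21 times the other libraries of their groups. Without TXX-1-10 replicate 3 the log2 fold change was -0.69, and with the length correction it was -0.45. Reads may be shared with its 5 named pseudogenes, and 5.96% of its exonic bases with EIF1AD on the other strand.

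LEMD3 (ENSG00000174106, chr12 65169571 to 65248327, plus strand) encodes MAN1, a LEM protein that also binds SMAD proteins. It had 8.76, 8.22 and 8.34 FPKM in vehicle, 9.31 and 8.86 FPKM in rimonabant replicates 2 and 3 and 8.24, 8.47 and 8.38 FPKM in TXX-1-10. The TXX-1-10 and vehicle ranges overlapped. In the fit of 8 libraries the log2 fold change under TXX-1-10 was -0.01 (SE 0.056, adjusted p = 0.850 by edgeR), with a 95% confidence interval of -0.13 to 0.11, and its sign turned with TMM scaling (0.04). Of the 3 LEM-domain genes here, TMPO fell 3.28-fold, whereas the lower ends of the intervals of EMD and LEMD3 were at -0.29 and -0.13. The difference between the genes was not tested.

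SUN1 (ENSG00000164828, chr7 816615 to 896435, plus strand) and SUN2 (ENSG00000100242, chr22 38734725 to 38794143, minus strand) encode the inner membrane part of the bridge to the cytoskeleton. SUN1 had 16.9, 17.3 and 17.5 FPKM in vehicle, 15.4, 17.0 and 16.5 FPKM in rimonabant and 15.3, 16.0 and 14.5 FPKM in TXX-1-10. SUN2 had 13.5, 13.1 and 13.4 FPKM in vehicle, 8.65, 9.002 and 8.53 FPKM in rimonabant and 7.47, 8.28 and 7.74 FPKM in TXX-1-10. For SUN2 both treated groups lay well below vehicle and apart from each other, while for SUN1 rimonabant reached into vehicle. Under TXX-1-10 the SUN2 change was a fall, at -0.77 on the log2 scale (SE 0.053, adjusted p = 4.21e-07 by edgeR). SUN1 stood at -0.18 (SE 0.053, adjusted p = 0.0117 by edgeR), which lost its call with TMM scaling (-0.08, adjusted p = 0.269), with DESeq2 (-0.08, adjusted p = 0.264) and with the length correction (-0.09, adjusted p = 0.0618). The ratio of SUN2 to SUN1 was 0.772 ± 0.0212 in vehicle, 0.537 ± 0.0222 in rimonabant and 0.513 ± 0.0223 in TXX-1-10 (SD, n = 3 each). It was lower in all libraries of both treated groups than in vehicle, with the smallest exact permutation p of 0.1 (adjusted 0.15) for each. Other genes share 16.3% of the exonic bases of SUN1 and 27.8% of those of SUN2, so their counts are uncertain to that extent. Among these genes GET4 is on the same strand as SUN1 and DNAL4 on the same strand as SUN2.

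**Figure D3:**
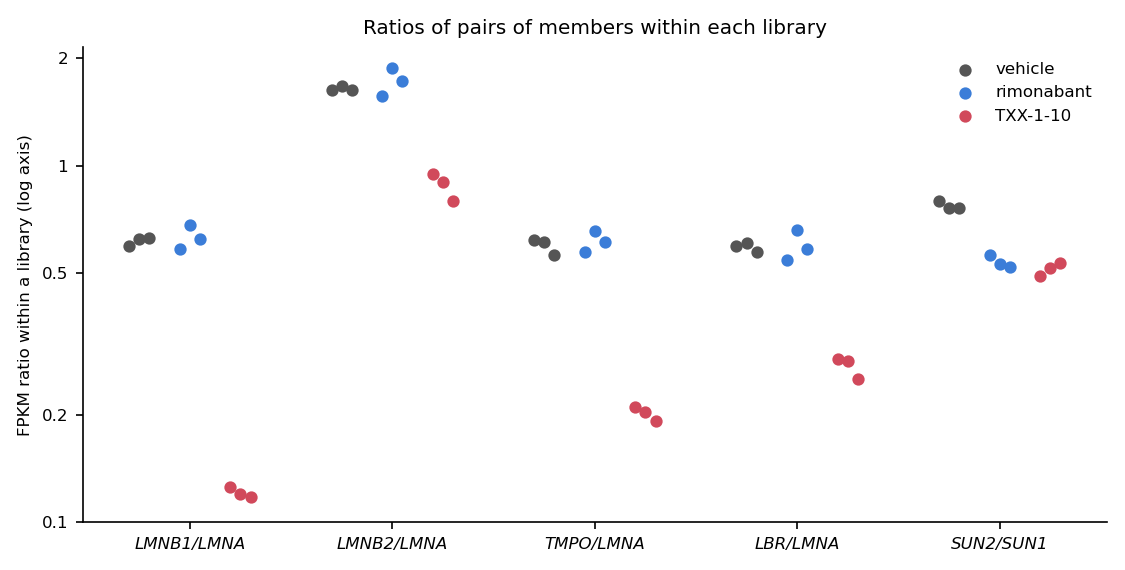
FPKM of LMNB1, LMNB2, TMPO and LBR over that of LMNA, and of SUN2 over SUN1, within each library (log axis). The TXX-1-10 points lie below all others in the 4 ratios to LMNA, for LMNB1 at a mean of 0.121 against 0.615 in vehicle, and in SUN2 over SUN1 the rimonabant points (mean 0.537) lie with those of TXX-1-10 (mean 0.513).

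The choice of scaling bears on the small changes above. With the library totals the median of all genes was -0.09 under TXX-1-10, with TMM scaling it was 0.0038, and with DESeq2 0.0056, a shift of about 0.1 on the log2 scale that applies to each gene alike. The falls of LMNB1, TMPO, LBR, LMNB2, SUN2 and BANF1 (-2.50 to -0.60) exceeded this shift, while the values of LMNA (-0.15) and SUN1 (-0.18) were near it in size.

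**Figure D4:**
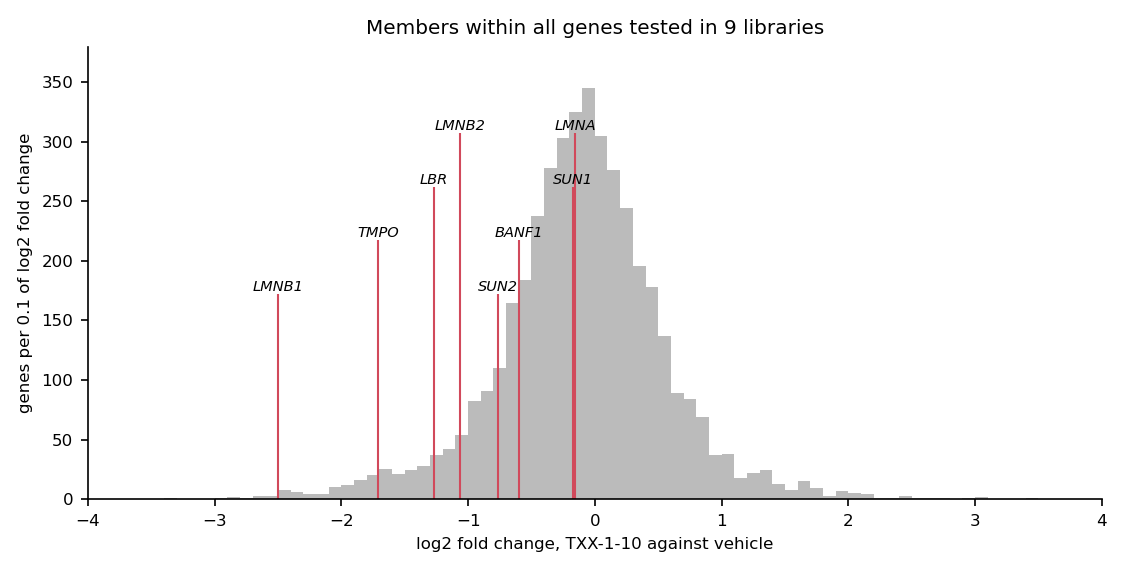
Number of genes (vertical axis) in each interval of 0.1 of the log2 fold change under TXX-1-10 against vehicle (horizontal axis) for the 4236 genes tested in 9 libraries, with red lines at the 8 lamina genes listed in all of them. The height of a red line carries no value. LMNB1 (-2.50) and TMPO (-1.71) lie in the thin left flank, and LMNA (-0.15) and SUN1 (-0.18) near the middle.

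Rimonabant lowered 7 of the 10 genes by small amounts and none of them 2-fold. This comparison shares its vehicle libraries with the one above. At an adjusted p of 0.05 without a fold limit 7 genes were lower and 0 higher, where 25.2% of 4236 genes were lower and 23.7% higher, and 0 of 10 passed the fold limit, as did 1.13% of genes. The count past both thresholds was also 0 of the 8 genes listed in all libraries with DESeq2 and in the other alternatives. In 7 the rimonabant range lay below vehicle (31.5% of genes) and in LEMD3 it lay above (29.7%). These shares are for 3 against 3 libraries, whereas EMD, among the 7, and LEMD3 had 2 rimonabant libraries, which separate more easily. The median log2 fold change was -0.31 over the 8 genes listed in all libraries, against -0.02 over all genes.

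SUN2 fell most, to -0.61 on the log2 scale (SE 0.052, adjusted p = 1.68e-05 by edgeR). LMNA and LBR followed at -0.34 each (adjusted p = 0.00367 and 0.000108), LMNB1 and TMPO at -0.31 each (adjusted p = 0.000791 and 0.000569), and LMNB2 at -0.28 (adjusted p = 0.000571). In the fit of 9 libraries these 5 genes fell by nearly the same amount. The ratios of LMNB1, LMNB2, TMPO and LBR to LMNA overlapped between rimonabant and vehicle, with exact permutation p-values of 0.9, 0.6, 0.7 and 1. In rimonabant replicate 1 LMNA was 1.14 times the mean of the other rimonabant libraries. Without that library LMNA was at -0.41 and LMNB2 at -0.28. For LMNB2 over LMNA the overlap rested on replicate 1 (1.57). Rimonabant replicates 2 and 3 (1.87 and 1.73) lay above all vehicle libraries (1.63 to 1.67). EMD was at -0.20 (adjusted p = 0.0261 by edgeR, n = 2 rimonabant libraries), and lost the call when vehicle replicate 1 (0.0616) or 2 (0.0902) or either rimonabant library (0.169 and 0.0736) was left out.

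BANF1, SUN1 and LEMD3 did not pass. The log2 fold change of BANF1 was -0.13 (adjusted p = 0.272 by edgeR), with a 95% confidence interval of -0.33 to 0.08. Without rimonabant replicate 1 it was -0.22 (adjusted p = 0.0464), without rimonabant replicate 2 it was -0.06 (adjusted p = 0.630), and with the gene length correction it was -0.13 (adjusted p = 0.00443). SUN1 was at -0.08 (adjusted p = 0.218, interval -0.20 to 0.03). LEMD3 was at 0.11 (adjusted p = 0.178, interval -0.03 to 0.24), with both of its rimonabant libraries above all 3 of vehicle.

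**Figure D5:**
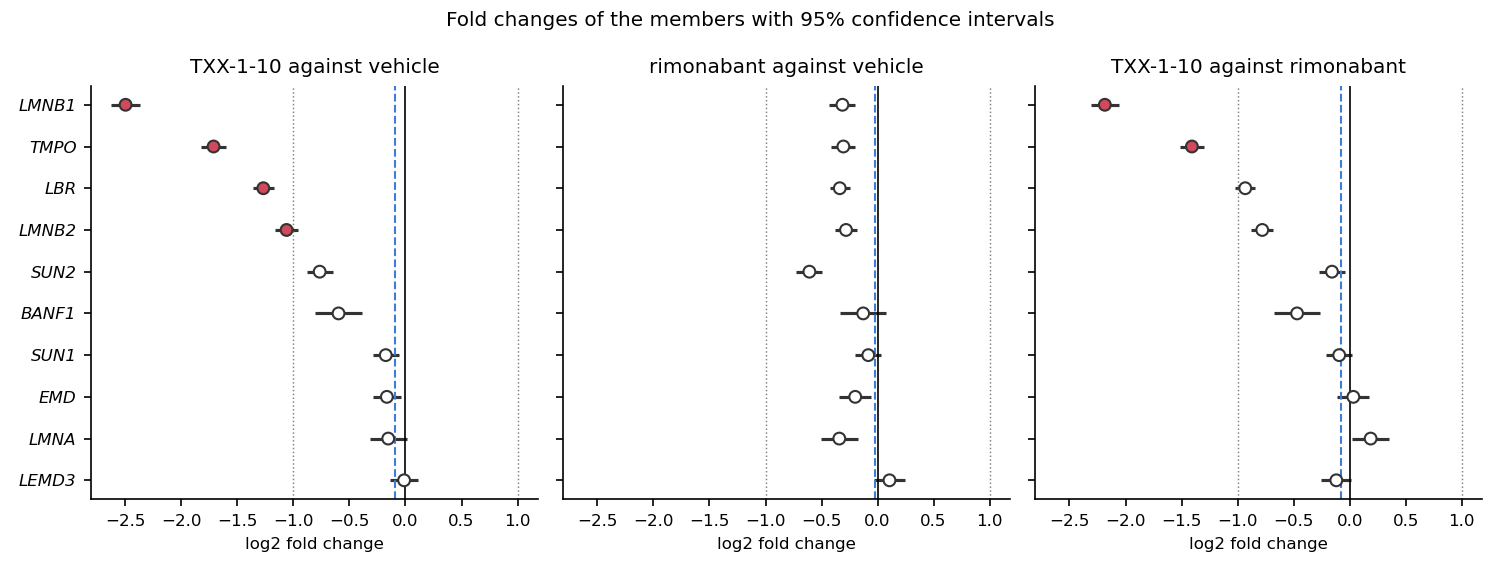
Log2 fold changes (horizontal axes) of the 10 genes in the 3 comparisons, with 95% confidence intervals as bars. Filled points passed both thresholds, dotted lines mark a 2-fold change, and the dashed blue line is the median of all genes tested in 9 libraries. LMNB1 is at -2.50, -0.31 and -2.18, whereas SUN2 is at -0.77, -0.61 and -0.16.

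Compared directly, TXX-1-10 left LMNB1 and TMPO more than 2-fold below rimonabant, and LBR, LMNB2 and BANF1 lower by less. Of the 10 genes 2 passed both thresholds, both lower, where 4.34% of 4236 genes were lower (5.93% in either direction). At an adjusted p of 0.05 without a fold limit, 6 were lower and 1 higher, against 39.4% and 25.1% of genes. The log2 fold changes were -2.18 for LMNB1 (SE 0.056, adjusted p = 2.08e-09 by edgeR), which 5 of the 4236 genes exceeded in their fall, and -1.41 for TMPO (SE 0.049, adjusted p = 9.25e-09). They were -0.93 for LBR (adjusted p = 3.96e-08), -0.78 for LMNB2 (adjusted p = 2.17e-07) and -0.47 for BANF1 (adjusted p = 0.00132).

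In the other 5 genes the compounds differed little or not detectably. SUN2 was lower under TXX-1-10 by 0.16 on the log2 scale (adjusted p = 0.0245 by edgeR, interval -0.28 to -0.04), and the call was lost with TMM scaling (-0.07, adjusted p = 0.281) and without rimonabant replicate 2 (0.0796) or TXX-1-10 replicate 1 (0.103). LMNA was the one gene higher under TXX-1-10, at 0.19 (adjusted p = 0.0455 by edgeR, interval 0.02 to 0.35). Its FPKM ranges overlapped, and the call was lost without any one of the vehicle libraries (0.0637 to 0.0668), without rimonabant replicate 2 (0.152) or 3 (0.118) and without TXX-1-10 replicate 3 (0.131). With single libraries left out the value ran from 0.12, without TXX-1-10 replicate 3, to 0.25, without rimonabant replicate 1. SUN1 was at -0.09 (adjusted p = 0.146, interval -0.21 to 0.02), EMD at 0.03 (adjusted p = 0.683, interval -0.11 to 0.18) and LEMD3 at -0.12 (adjusted p = 0.115, interval -0.25 to 0.02). The intervals hold differences of up to 0.25 on the log2 scale, so they do not show that the compounds act alike on these 3 genes.

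The genes whose profiles over the 9 libraries lay closest to that of LMNB1 were MCM10, ENC1, ANLN, TOP2A and CCNA2. Likeness was the root mean square difference of log2 FPKM, centred on the vehicle mean, and ran from 0.0853 for MCM10 to 0.154 for CCNA2 over 4235 genes. MCM10 acts in the start of DNA replication, TOP2A untangles DNA, ANLN works in cytokinesis and CCNA2 is cyclin A2, while ENC1 is an actin-associated protein first known from nerve cells. Their log2 fold changes under TXX-1-10 were -2.50, -2.41, -2.50, -2.43 and -2.29 for MCM10, ENC1, ANLN, TOP2A and CCNA2. The proliferation marker MKI67 had a mean of 64.7 FPKM in vehicle, 49.2 FPKM in rimonabant and 17.2 FPKM in TXX-1-10. In the fit of 9 libraries this was -1.91 on the log2 scale for TXX-1-10, and -0.40 for rimonabant, which did not pass. Without rimonabant replicate 1 the rimonabant value was -0.21 (adjusted p = 0.301 by edgeR). The part of proliferation in the fall of the lamina genes was not tested. LEMD3, which had the largest value above vehicle of the 10 genes, was closest over 8 libraries and 9368 genes to PTPRA (0.0265), ZNF431, PPWD1, HSF2 and RARS2 (0.0381).

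The neighbours of these genes were described from lists drawn up by function, in the fit of 8 libraries without rimonabant replicate 1, which covered 9369 genes. Under TXX-1-10 7.39% of these genes were at least 2-fold lower and 5.28% higher, and 40.6% and 34.7% passed the adjusted p lower and higher. Under rimonabant 0.758% and 0.736% changed 2-fold, and 22.8% and 23.7% passed. The median log2 fold changes of all 9369 genes were -0.04 and 0.0030. All values in the next paragraphs are log2 fold changes from this fit with edgeR.

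Among other envelope proteins, 14 of 15 were tested. Under TXX-1-10 7 fell and 4 rose, 3 did not pass, and the median was -0.15. The 3 that fell at least 2-fold were NRM, which encodes nurim of the inner membrane (-1.76), TMEM201, the gene of SAMP1 (-1.22), and SYNE2, whose product nesprin-2 pairs with the SUN proteins (-1.09). LEMD2, a further LEM protein gene, and ANKLE2, which acts on BANF1 in mitosis, rose by 0.49 and 0.44. NEMP1 (0.02, adjusted p = 0.749) and TMEM43 (-0.04, adjusted p = 0.463) did not pass. Under rimonabant 3 fell and 4 rose, none of them 2-fold, and NEMP1 was at 0.59 (adjusted p = 5.76e-05) and NRM at -0.48 (adjusted p = 0.000963). In the comparison of TXX-1-10 with rimonabant, in which 4.31% of the 9369 genes were at least 2-fold lower, TXX-1-10 left NRM (-1.28), SYNE2 (-1.22) and TMEM201 (-1.06) at least 2-fold lower.

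The 5 genes of lamin processing, which farnesylate, cleave and methylate the end of prelamins, moved in both directions. ICMT, the methyltransferase, fell by 0.92 under TXX-1-10, and FNTB (-0.31) and the protease gene ZMPSTE24 (-0.27) fell by less. RCE1, a protease, and FNTA, a subunit of farnesyltransferase, rose by 0.64 and 0.62. Under rimonabant ICMT alone passed (0.20, adjusted p = 0.0115), so that against rimonabant it was lower by 1.12 (adjusted p = 8.44e-09) and passed the fold limit. Of the HP1 genes, whose products bind LBR, all 3 fell under TXX-1-10, CBX5 by 2.20, CBX1 by 0.99 and CBX3 by 0.78. Under rimonabant CBX5 fell by 1.19 (adjusted p = 1.86e-07) and CBX3 by 0.39, while CBX1 was at -0.13 (adjusted p = 0.0695). CBX5 was lower by 1.01 under TXX-1-10 than under rimonabant and passed the fold limit there.

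Of 13 genes of envelope breakdown and resealing, 5 fell and 6 rose under TXX-1-10, with a median of 0.06. Those that fell 2-fold were CCNB1 (-1.99) and CDK1 (-1.90), the cyclin B1 kinase that phosphorylates lamins, and VRK1 (-1.12), the kinase that acts on BANF1. IST1 and CHMP4B, which seal membrane holes, rose by 0.50 and 0.48. PPP2R1A (0.01, adjusted p = 0.893 by edgeR) and CHMP2A (0.06, adjusted p = 0.406 by edgeR) did not pass. Under rimonabant 1 fell (CCNB1, at -0.998 and just short of 2-fold) and 3 rose. Against rimonabant, TXX-1-10 left CDK1 (-1.79) and VRK1 (-1.14) at least 2-fold lower. Of 30 nuclear pore genes 25 fell and 0 rose under TXX-1-10, with a median of -0.54, and NDC1 (-1.69) and NUP155 (-1.37), both of the membrane-near part of the pore, fell 2-fold. RANBP2, at 0.03 (adjusted p = 0.644), was among the 5 that did not pass. Rimonabant lowered 10 and raised 2 of the 30, with a median of -0.09. NDC1 (-1.33) and NUP155 (-1.05) were also at least 2-fold lower under TXX-1-10 than under rimonabant.

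LBR shares the late steps of cholesterol synthesis with 9 genes listed here, and most of these rose. Under TXX-1-10 6 of the 9 rose and 2 fell, with a median of 0.42, and under rimonabant 8 rose and 0 fell, with a median of 0.49. NSDHL (0.13, adjusted p = 0.148 by edgeR) did not pass under TXX-1-10. MSMO1, which removes methyl groups from sterols, rose 2-fold with both compounds (1.07 and 1.09). TM7SF2, whose enzyme catalyses the same reduction as LBR, rose by 0.42 (adjusted p = 0.00446) under TXX-1-10 and by 0.53 (adjusted p = 0.00383) under rimonabant. Its mean level was 3.89 FPKM in vehicle, 5.62 FPKM in rimonabant and 5.19 FPKM in TXX-1-10, below that of LBR in each group. Against rimonabant, TXX-1-10 left 3 of the 9 lower and 0 higher, where 33.9% and 26.7% of all genes passed lower and higher.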

How the data were processed

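Polyadenylated RNA had been sequenced, and per the submitters' processing notes HISAT2 2.0.5 and featureCounts 1.5.0-p3 were among the tools. The deposited lists give each gene a raw count, and beside it the authors deposited FPKM, that count scaled to a gene length and to a total of reads. This total, worked back from the 2 columns, served as library size in all fits. The listed counts summed to more than it in vehicle replicates 1 (17492638 against 17078370) and 3 (17383157 against 17221591). In every other library they summed to less, as in TXX-1-10 replicates 2 (16836181 against 18394759) and 3 (17493322 against 18405221). Which reads make up the total is not stated in the sources used here, so the scaling between groups is uncertain. Counts of 27590 of 27615 genes carry the coordinates of GENCODE 29 (GRCh38). Incomplete last lines were dropped. Genes averaging 1 FPKM or more entered 1 fit of 9 libraries (4236 genes) or, for EMD, LEMD3 and the lists of neighbours, 8 libraries (9369 genes), with edgeR 4.0.16 in R 4.3.3 (estimateDisp, glmQLFit, glmQLFTest). The common biological coefficients of variation were 0.0696 and 0.0604. The standard error is the log2 fold change over the square root of F, which is approximate. The thresholds, an absolute log2 fold change of 1 and an adjusted p of 0.05, are those under which the study displayed these libraries, while its methods state a 2-fold change and a p of 0.05 from Cufflinks. Ratios were tested with scipy 1.17.1. Counting noise falls with depth, which differed little between groups.

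The 10 genes, the lists and the tests were chosen with earlier results of these data known. The text names the 10 genes, from each list the 2-fold changed genes (at most 4 per comparison, by size) and 1 or 2 that did not pass, the 5 profiles nearest to LMNB1 and to LEMD3, and the marker genes. Other genes of the lists were named after their values were seen. Alternatives were TMM, DESeq2 1.42.0, limma 3.58.1 on log2(FPKM + 1) or log2(FPKM + 0.1), no filter or a mean FPKM of 5, the replicate block, a gene length correction (lowess, span 0.3) with and without the block, fits of 2 groups, and libraries left out. Scripts were tested on simulated counts. Tables and plots used Python 3.11.15, numpy 2.4.6, pandas 2.3.3 and matplotlib 3.10.9.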

Additional observations from a re-analysis of the deposited data

How the results depend on the processing

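LMNB1, LBR and TMPO stayed past both thresholds under TXX-1-10 against vehicle in all 21 alternatives, from -2.54 to -2.37, -1.27 to -1.17 and -1.74 to -1.61. The numbers of the 8 genes called or passing stayed within 1.5 times in each comparison. The median log2 fold change of the 8 genes under TXX-1-10 against vehicle (-0.91) was -0.81 with TMM scaling, -0.81 with DESeq2, -0.87 with limma on log2(FPKM + 1), -0.84 with the gene length correction and -0.84 with that correction and the replicate block. Against rimonabant (-0.62) it was -0.54 with TMM scaling, -0.54 with DESeq2, -0.51 with the length correction, -0.51 with that and the replicate block, and -0.58 in the fit of 8 libraries. With single libraries left out it ran from -0.67 (without TXX-1-10 replicate 3) to -0.58 (without rimonabant replicate 1), the 2 libraries with a length trend. The sign of LEMD3 under TXX-1-10 turned with TMM scaling (0.0393), DESeq2 (0.0347), the length correction (0.0069, and 0.0069 with the replicate block) and without vehicle replicate 1 (0.0152, with -0.0313 at the other end of the range when single libraries were left out). EMD against rimonabant was -0.0061 to 0.0623 with single libraries left out, the lowest without TXX-1-10 replicate 3. TMM, DESeq2 and the length correction move the median of all genes by construction, and the cause of the other shifts was not tested.

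Replicate numbers did not pair the libraries. How far libraries of the same number lay from their group's mean, gene by gene, correlated at -0.074 to 0.043 between vehicle and either compound, and at -0.789, 0.828 and -0.614 between the compounds. With the replicate number as a block the counts called were 4, 0 and 2 of 8 genes in the 3 comparisons and those passing 7, 6 and 6, with medians of -0.91, -0.31 and -0.62, and LMNA against rimonabant lost its call (adjusted p = 0.0519 by edgeR). Precision is limited by 3 libraries per group, 2 for EMD and LEMD3 under rimonabant, and by counting error in the genes with few reads, which had as few as 548 reads for LMNB1, 788 for LEMD3 and 834 for EMD in a library.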
